A study of Rattus norvegicus with 36 samples.

Results

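The proteasome subunit genes are described here in the lungs of rats that inhaled crystalline silica, a mineral dust, or air. Members were the genes whose array symbol starts with Psm, a letter from a to g and a digit, without the 3 immunoproteasome subunits Psmb8, Psmb9 and Psmb10. The array carried 40 such genes, each with 1 probe, among 13315 genes with a symbol, and 38 of the 40 were detected and tested among 9078 tested genes. By known role the tested members comprised 14 genes of the core particle, 16 of the regulatory particle, 4 assembly chaperones, 3 activators and Psmc3ip. The last of these matched the naming rule but encodes a partner of the meiotic recombination machinery and not a subunit.

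Lung RNA came from 36 male CDF Fisher 344 rats, with 1 Illumina BeadChip array per rat and 375 ng of RNA per labelling. The labels give an age of 3 months for every length of exposure, which may not be the age at sampling. The silica aerosol had a concentration of 15 mg/m3. Exposure to silica or to air took 6 hours a day, 5 days a week, and lasted 3, 6 or 12 weeks. This gave 6 groups of 6 rats, and each length of exposure had its own air group. The comparison asks whether the genes of the protein-degrading machinery responded to sub-chronic silica inhalation, and whether those of the core and of the regulatory particle moved alike.

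The proteasome is the large protease of cytoplasm and nucleus that breaks down proteins tagged with ubiquitin. Its core particle is a barrel of alpha rings, which gate the entrance, around beta rings, which hold the proteolytic sites. The regulatory particle caps the barrel, where non-ATPase subunits bind and strip ubiquitin chains and a ring of ATPases unfolds the substrate and feeds it in. Immune cells and cells exposed to interferon can exchange the catalytic subunits for immunoproteasome forms and use other caps, among them the activator made of Psme1 and Psme2.

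The start regions of 4 members on which the results below turn are printed to show the kind of promoter behind them. RefSeq sequences of 250 bases before to 50 after the gene start, build GRCr8, matched 36 of the 40 members by symbol. Each was searched on both strands for the core of the antioxidant response element (TGACNNNGC), the CCAAT box (CCAAT) and the gamma-activated sequence (TTCNNNGAA). Capitals mark every match, and where capitals run on, 2 matches touch or overlap.
Psmb2, chr5:144254808-144255107, plus strand: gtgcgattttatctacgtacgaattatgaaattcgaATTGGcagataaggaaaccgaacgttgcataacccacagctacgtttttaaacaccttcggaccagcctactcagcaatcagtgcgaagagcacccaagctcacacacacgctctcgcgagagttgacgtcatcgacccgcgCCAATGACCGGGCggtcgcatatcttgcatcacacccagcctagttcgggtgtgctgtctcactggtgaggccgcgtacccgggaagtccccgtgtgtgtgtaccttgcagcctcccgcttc
Psmd2, chr11:93763339-93763638, minus strand: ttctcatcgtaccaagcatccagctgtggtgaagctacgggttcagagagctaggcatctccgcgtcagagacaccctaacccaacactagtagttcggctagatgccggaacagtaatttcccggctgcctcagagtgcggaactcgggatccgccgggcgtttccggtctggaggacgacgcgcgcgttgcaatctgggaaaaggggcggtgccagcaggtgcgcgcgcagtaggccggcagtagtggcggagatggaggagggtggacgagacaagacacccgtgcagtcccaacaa
Psmd7, chr19:52411267-52411566, minus strand: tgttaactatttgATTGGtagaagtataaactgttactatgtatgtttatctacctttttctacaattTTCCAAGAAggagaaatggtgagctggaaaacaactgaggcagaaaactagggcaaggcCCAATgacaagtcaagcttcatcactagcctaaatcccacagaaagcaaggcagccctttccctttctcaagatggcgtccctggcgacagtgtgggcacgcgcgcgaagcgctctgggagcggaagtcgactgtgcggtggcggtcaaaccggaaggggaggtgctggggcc
Psme2, chr15:33052702-33053001, minus strand: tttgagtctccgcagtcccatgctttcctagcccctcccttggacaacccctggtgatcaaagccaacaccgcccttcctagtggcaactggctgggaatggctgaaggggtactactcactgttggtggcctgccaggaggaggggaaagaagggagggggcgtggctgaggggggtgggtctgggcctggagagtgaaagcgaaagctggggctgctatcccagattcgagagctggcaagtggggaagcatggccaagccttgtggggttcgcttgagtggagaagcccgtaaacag
Psmb2, a core beta subunit, held 1 antioxidant-type match and 2 CCAAT boxes. Psmd7 held 2 CCAAT boxes and 1 gamma-activated match, while the windows of Psmd2 and Psme2 held none of the 3 letter patterns. The antioxidant-type pattern stood in 8 of 36 member promoters (22.2%), against 12.1% of the 33469 promoters in the table. A CCAAT box stood in 16 (44.4%) against 37.5%, and the gamma-activated pattern in 3 (8.33%) against 8.87%. Among the 14 core promoters found, 4 held the antioxidant-type pattern and 9 a CCAAT box, and among the 14 regulatory promoters found the counts were 2 and 5. These matches describe letters in a window and were not tied to binding.

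Across the arrays the mean raw intensity ran from 345 to 519, array medians were 52.0 to 66.7, and 48.7% to 53.1% of probes were detected. The 12 arrays of the 6-week groups lay apart from the others on the first principal component. The labels name no chip or batch, so week and a possible array batch cannot be told apart. Each silica group was therefore compared with the air group of its own week. Air 3-week replicate 5 and silica 12-week replicate 3 also stood apart from their groups. They lay at 8.72 and 15.11 on that component, shifted towards the 6-week arrays. All 8 type I and all 7 type II pneumocyte markers on the array were detected, which fits the tissue label. Several marker lists moved with silica, given here as summed normalized linear intensity. Over 7 detected alveolar macrophage markers, with Marco not detected, the sum at 12 weeks was 6574 to 8069 in silica rats and 3497 to 5580 in air rats, although 1 of the 7, Chit1, was called lower at all 3 weeks. The 7 type II pneumocyte markers summed to 63460 to 70990 with silica and 56230 to 63840 with air, and the 6 endothelial markers to 19730 to 22160 with silica and 25580 to 28060 with air. The 8 type I markers summed to 29860 to 32900 with silica and 34040 to 36130 with air, and the 8 T and NK cell markers to 5028 to 5828 and 6296 to 8180. Against these sums, 2 type I, 2 T and NK cell and 1 endothelial marker had a 12-week change above 0, and 1 type II marker below 0. None of those was called. The 5 monocyte and dendritic cell markers summed to 3451 to 5017 with silica and 2256 to 2509 with air. The 7 detected cell cycle markers summed to 3787 to 4249 and 2859 to 3665. No marker of these 2 lists had a 12-week change below 0. The 6 detected neutrophil markers summed to 1706 to 2937 and 957 to 1839, which overlapped, and 3 of the 6 changed below 0. The ranges of the red cell sum (21690 to 24900 with silica, 21700 to 25960 with air) and of the fibroblast and smooth muscle sum (11750 to 14830, 11290 to 15500) overlapped widely. Within these lists 1 red cell marker and 2 fibroblast and smooth muscle markers were called lower at 12 weeks. In such bulk RNA, fewer cells of a type and less RNA per cell cannot be told apart, and the part of this shift in the values of the members was not tested.

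Few proteasome genes passed the test. With limma and Benjamini-Hochberg adjustment over all 9078 genes, 2 members were higher and 1 was lower with silica at 3 weeks, against a background of 7.51% of all genes called higher and 6.08% called lower. The members' shares were 5.26% and 2.63%. At 6 weeks 2 members were higher and 2 lower (5.26% each), beside 8.8% and 8.5% of all genes. At 12 weeks 4 members were higher and 1 lower (10.5% and 2.63%), beside 11.7% and 14.2%. These shares rest on 1 to 4 genes each and lay near or below the background. Their order turned with the processing, with 13.2% of members and 10.7% of all genes higher at 6 weeks with array weights, and 13.2% and 11.3% higher at 12 weeks with the background inferred from all probes. In all, 8 genes made these 12 calls out of 114 gene and week pairs, 30 members were not called at any week, and no member was called in both directions. Median scaling in place of quantile normalisation changed the balance of calls over all genes, with 86.2% of calls higher at 3 weeks in place of 55.3%, 70.4% in place of 50.9% at 6 weeks and 32.5% in place of 45.2% at 12 weeks, and it called Psmb2 and Psmb6 at 3 weeks, no member at 6 weeks and Psmd7 at 12 weeks.

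The sizes of these changes were small. Log2 changes of the members ran from -0.21 to 0.19 at 3 weeks, from -0.13 to 0.22 at 6 weeks and from -0.20 to 0.18 at 12 weeks. The -0.21 belonged to Psmc6, a probe near background, and the lowest 3-week change among the 35 members detected on all arrays was -0.13. At each week the 95% interval of all 35 members detected on all 36 arrays lay inside a 1.5-fold change in either direction. The 3 dim members, Psma3, Psmc6 and Psmd8, are left out of that count, since a probe near background shows a compressed change. Such narrow intervals were common, with 94.95%, 94.38% and 92.45% of all tested genes inside the same bound at 3, 6 and 12 weeks. Among the 2270 brightest tested genes the shares were 96.3%, 95.29% and 94.63%. The median log2 change of the members was 0.03, 0.01 and -0.01 at 3, 6 and 12 weeks, and that of all tested genes was -0.00, -0.02 and -0.02. Under median scaling these were 0.13, 0.06 and -0.06 for the members and 0.05, 0.00 and -0.05 for all tested genes. The members were bright probes with a median within-group SD of 0.08 on the log2 scale, against 0.12 for all tested genes, at median levels of 10.58 and 7.31. At an unadjusted p under 0.05 stood 13, 11 and 7 members (34.2%, 28.9% and 18.4%), where 27.8%, 28% and 37% of all genes did. Over the weeks the share of all genes past that limit was larger at 12 weeks than at 3, and that of the members was smaller.

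**Figure D1:**
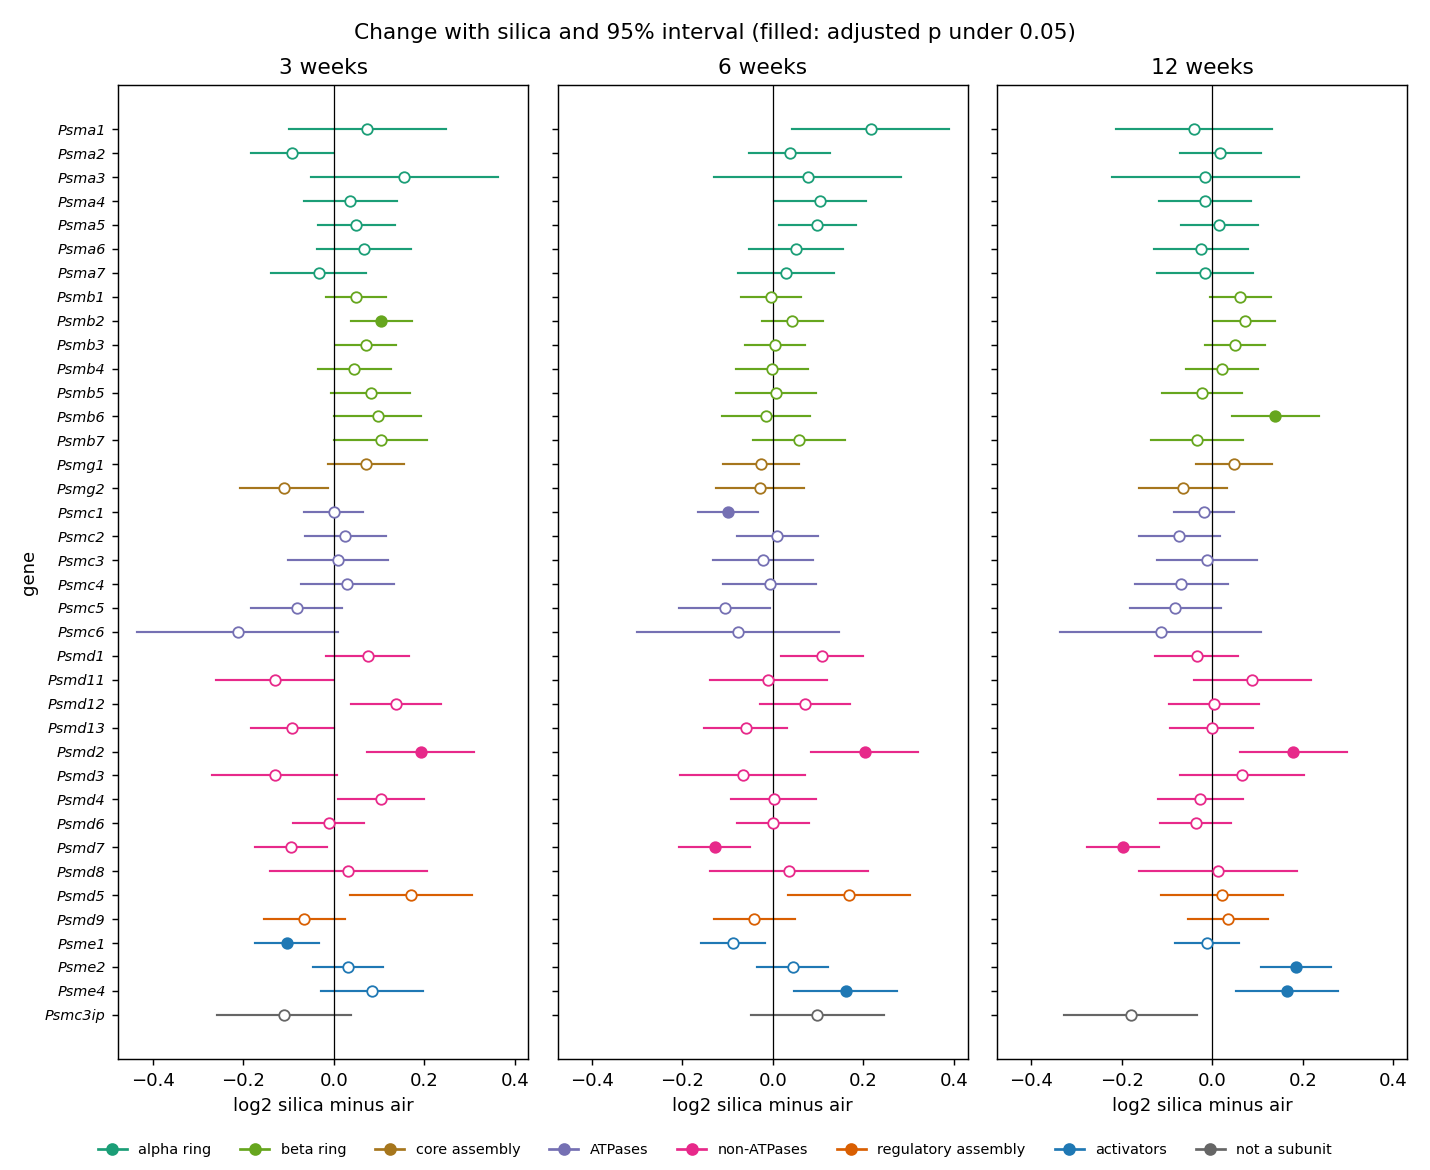
Log2 change with silica against air (horizontal axis) for each of the 38 tested members (vertical axis, ordered and coloured by role) at 3, 6 and 12 weeks, with the 95% interval of the model as a line and filled points where the adjusted p lay under 0.05. Filled points number 3, 4 and 5, Psmd2 is filled in all panels, and all intervals stay within 0.44 of 0.

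Complete separation of the 6 silica from the 6 air rats was found for 6 of the 114 gene and week pairs. At 3 weeks the groups did not overlap for 0 members in either direction, where 3.89% of all genes were apart with silica higher and 2.3% with silica lower. At 6 weeks 1 member was apart with silica higher and 2 with silica lower, beside 5.17% and 4.65% of all genes. At 12 weeks 2 were apart with silica higher and 1 with silica lower, beside 5.62% and 5.77%. Psmd1, a scaffold subunit of the regulatory base named here after its values were seen, was the member apart with silica higher at 6 weeks, at a log2 change of 0.11 that did not pass the test (adjusted p = 0.099), although it did with array weights (0.11, 0.0379) and without both arrays that stood apart (0.11, 0.0471).

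No member passed the test of a difference in silica effect between lengths of exposure. For 6 against 3 weeks limma called 0 members, beside 0.0661% of all genes with a larger and 0.011% with a smaller effect, and 2 members stood at an unadjusted p under 0.05. For 12 against 3 weeks it called 0, beside 1.53% and 1.33%, and 3 members stood at that limit. For 12 against 6 weeks it called 0, beside 0.011% and 0%, and 5 members stood at that limit. At that unadjusted limit stood 5.26%, 7.89% and 13.2% of the members in these comparisons, in that order. Of all tested genes 8.28%, 22.4% and 12.8% did. The lowest adjusted p was 0.0921, for Psme2 at 12 against 3 weeks, with a difference of 0.15 ± 0.05 (SE).

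In the core particle, 14 of its 16 genes on the array were tested. Psma8, an alpha subunit of male germ cells, and Psmb11, the beta subunit of thymus epithelium, were detected on 0 of 36 arrays. With silica 1 core gene rose at 3 weeks, none passed the test at 6 weeks (3 at an unadjusted p under 0.05) and 1 rose at 12 weeks, while none fell at any week. Of the 14 core genes, 12 had a change above 0 at 3 weeks, 11 at 6 weeks and 7 at 12 weeks, where 49.6%, 43.9% and 45.9% of all tested genes did. Their median log2 change was 0.07, 0.04 and 0.00. Among the 2270 brightest tested genes, which hold most core probes, the median change was -0.01, -0.02 and -0.02.

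The 7 tested alpha ring genes, which form the gated entrance, had no call at any week in the model as reported, and 1, 3 and 0 of them stood at an unadjusted p under 0.05. All 7 had a change above 0 at 6 weeks, from 0.03 for Psma7 to 0.22 for Psma1, and 5 were below 0 at 12 weeks, where none differed by more than 0.04. Psma5, at 0.10 at 6 weeks, was called with array weights alone among the alternatives that kept all rats (adjusted p = 0.0441). Psma1 had the largest test statistic of the ring. At 6 weeks its log2 level in air rats had a lowest value of 6.53, a median of 6.80 and a highest of 7.12, and in silica rats 6.85, 7.06 and 7.17. The groups overlapped, and 2 silica rats lay above every air rat. The change of 0.22 ± 0.09 (SE) did not pass the test (adjusted p = 0.079) but did without air replicate 1 (0.26, adjusted p = 0.0363), air replicate 3 (0.27, 0.0226) or silica replicate 6 (0.26, 0.0392). At 3 and 12 weeks Psma1 changed by 0.07 and -0.04 with intervals that held 0. Psma3 was a dim probe, detected on 33 of 36 arrays.

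The 7 tested beta ring genes include the catalytic subunits Psmb5, Psmb6 and Psmb7, with chymotrypsin-like, caspase-like and trypsin-like activity. All 7 had a change above 0 at 3 weeks, in a narrow range from 0.05 for Psmb4 to 0.11 for Psmb2, and 1 of them passed the test. At 6 weeks 4 were above 0 and none was called (0 at an unadjusted p under 0.05), with a range from -0.02 to 0.06. At 12 weeks 5 were above 0 and 1 was called.

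Psmb2, a non-catalytic beta subunit, rose at 3 weeks. Its log2 level was 12.09, 12.13 and 12.17 (lowest, median, highest) in air rats and 12.16, 12.24 and 12.28 in silica rats. The silica group lay above the air group except for 1 silica rat within its upper range. The change was 0.11 ± 0.03 (SE), or 1.08-fold (adjusted p = 0.0306). It lost its call without any one of air replicates 3, 5 and 6 or silica replicates 1, 3, 4 and 5 (0.10 each, adjusted p from 0.0529 to 0.0681), and with only the 12 arrays compared in the model (adjusted p = 0.119). At 6 and 12 weeks the change was 0.04 and 0.07 without a call, except at 12 weeks with the background from all probes (0.07, adjusted p = 0.0418).

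Psmb6, named after its values were seen, was the core gene called at 12 weeks. Air rats had 10.71, 10.77 and 10.94, and silica rats 10.84, 10.91 and 11.14. The groups overlapped widely, and the highest silica value belonged to replicate 3, an array that stood apart. The change of 0.14 ± 0.05 (SE, adjusted p = 0.0282) was 0.10 without that replicate (adjusted p = 0.109). Leaving out air replicate 1 (0.12, 0.0724), 4 (0.12, 0.0680) or 6 (0.12, 0.0685) also ended the call, as did a model with only the arrays compared (0.116) and median scaling (0.08, adjusted p = 0.433).

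All 16 regulatory particle genes on the array were tested. With silica 1 rose at 3 weeks, 1 rose and 2 fell at 6 weeks, and 1 rose and 1 fell at 12 weeks. Changes above 0 numbered 8, 7 and 5 of the 16 at 3, 6 and 12 weeks, and the median log2 change was 0.00, -0.01 and -0.02. Psmd10, Psmd14, Psme3, Psmf1, Psmg3 and Psmg4 were not analysed here.

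Of the 6 ATPases that form the unfolding ring, 1 was called, at 6 weeks. At 3 weeks 0 were called and 0 stood at an unadjusted p under 0.05. At 12 weeks 0 were called and 0 stood at that limit, although all 6 had a change below 0, from -0.11 for Psmc6 to -0.01 for Psmc3. Psmc6 was dim, detected on 23 of 36 arrays and on 0 of 6 silica arrays at 6 weeks, so no fold change is given for it there.

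Psmc1 was the ATPase that fell at 6 weeks. Its level was 12.42, 12.48 and 12.57 in air rats and 12.30, 12.40 and 12.42 in silica rats. The groups met at the edge without overlapping, and silica replicate 2 lay lowest. The change was -0.10 ± 0.03 (SE), or 0.934-fold (adjusted p = 0.0322). Without silica replicate 2 it was -0.08 (adjusted p = 0.111), without air replicate 2 -0.08 (0.0985) and without air replicate 3 -0.09 (0.0805). The call was also lost with only the arrays compared (0.0948) and under median scaling (-0.04, adjusted p = 0.796). At 3 and 12 weeks the change was -0.00 and -0.02.

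Among the 10 non-ATPase subunits, 5, 6 and 5 had a change above 0 at 3, 6 and 12 weeks, and their medians lay between 0.00 and 0.01. At 3 weeks Psmd11 and Psmd3 stood at -0.13 each and Psmd12 at 0.14, none of which passed the test (adjusted p = 0.177, 0.208 and 0.0547). Psmd12 did pass in 5 alternatives, among them the authors' values (0.13, adjusted p = 0.0445) and the data without both arrays that stood apart (0.15, adjusted p = 0.0267). Psmd8 was detected on 16 arrays and on 0 of 6 air arrays at 6 weeks, so no fold change is given for it there. The calls came from Psmd2 and Psmd7, in opposite directions.

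Psmd2, the scaffold of the base on which ubiquitin receptors and shuttle proteins dock, was the member called at all 3 weeks. Of all tested genes 6.57% were called in the same direction at all 3 weeks, and of the members 1 of 38 (2.63%). At 3 weeks its level was 9.92, 10.18 and 10.30 in air rats and 10.30, 10.34 and 10.41 in silica rats. The groups touched at 10.30, and the lowest air value was that of replicate 5, an array that stood apart. At 6 weeks air rats had 9.60, 9.76 and 9.85 and silica rats 9.84, 9.95 and 10.06, so the ranges barely overlapped. At 12 weeks air rats had 10.08, 10.19 and 10.37 and silica rats 10.21, 10.42 and 10.51, with a wider overlap.

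The log2 change of Psmd2 was 0.19 at 3 weeks, 0.20 at 6 weeks and 0.18 at 12 weeks, each ± 0.06 (SE), or 1.14-fold, 1.15-fold and 1.13-fold, with adjusted p of 0.0229, 0.0124 and 0.0211. The effect at 12 weeks differed from that at 3 weeks by -0.01 ± 0.08 (SE). Without air replicate 5 the 3-week change was 0.15 (adjusted p = 0.0911), and without silica replicate 6 it was 0.18 (0.0522). Without air replicate 1 the 12-week change was 0.15 (0.0635), and without silica replicate 6 it was 0.15 (0.0609). Median scaling kept the direction at each week (0.28, 0.24 and 0.09) but not the calls (adjusted p from 0.0623 to 0.560), and with only the arrays compared the adjusted p was 0.0572 at 3 weeks and 0.0558 at 12 weeks.

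Psmd7, which pairs with the deubiquitinase subunit in the lid of the regulatory particle, fell. At 3 weeks its level was 10.36, 10.44 and 10.54 in air rats and 10.25, 10.34 and 10.45 in silica rats, with overlap. At 6 weeks it was 10.58, 10.63 and 10.78 in air rats and 10.44, 10.55 and 10.57 in silica rats. At 12 weeks it was 10.53, 10.54 and 10.60 in air rats and 10.28, 10.35 and 10.43 in silica rats. The groups were apart at 6 weeks by a narrow margin and at 12 weeks by a wider one.

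The log2 change of Psmd7 was -0.09 at 3 weeks (not called, adjusted p = 0.108), -0.13 at 6 weeks (adjusted p = 0.0178) and -0.20 at 12 weeks (adjusted p = 0.000248), each ± 0.04 (SE). At 12 weeks this was 0.872-fold, with the lowest adjusted p among the members. The 12-week call held in all 22 alternatives run for it, with changes from -0.28 to -0.18 and adjusted p of at most 0.00461. The 6-week call was lost without air replicate 6 (-0.10, 0.0667) or silica replicate 1 (-0.11, 0.0606), with only the arrays compared (0.0502) and under median scaling (-0.10, 0.402). The 12-week change minus the 3-week change was -0.10 ± 0.06 (SE), which did not pass the test (adjusted p = 0.263).

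**Figure D2:**
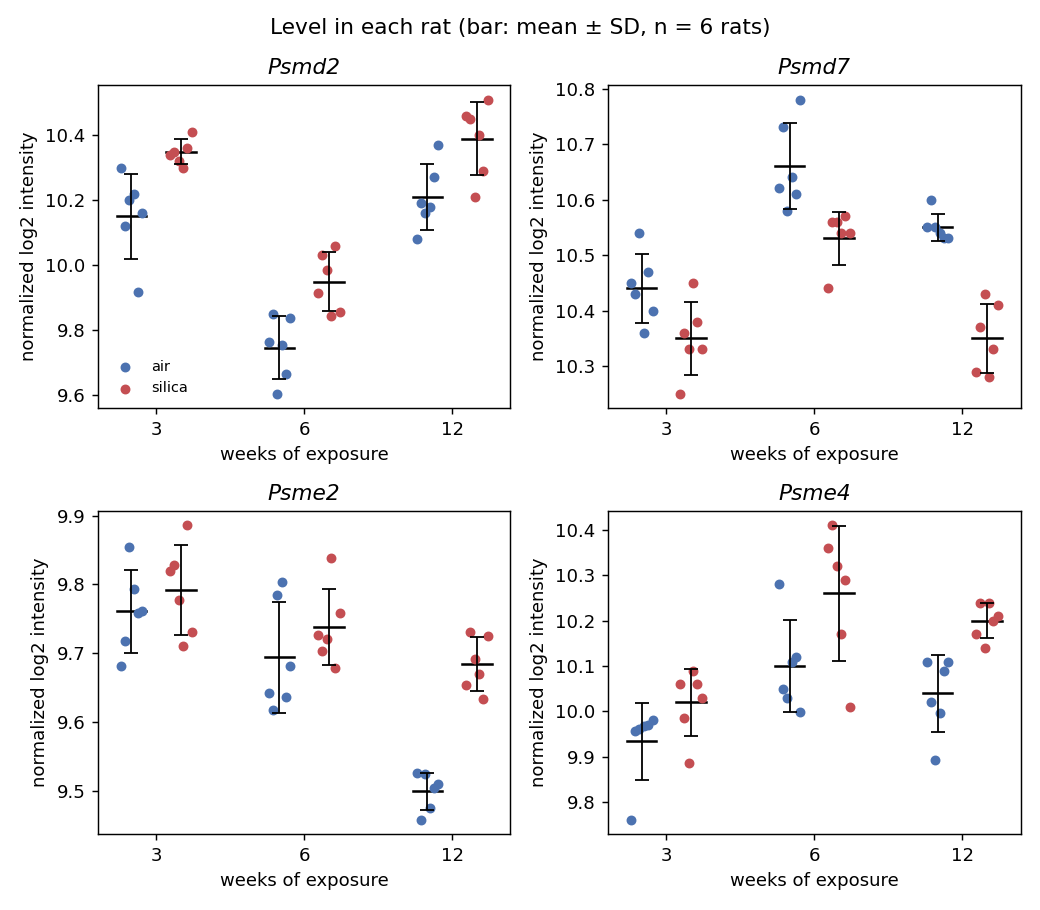
Normalized log2 intensity (vertical axis) of Psmd2, Psmd7, Psme2 and Psme4 in each rat by weeks of exposure (horizontal axis), air in blue and silica in red, with a bar for the mean and its SD over 6 rats. Silica points sit higher for Psmd2 at each week and lower for Psmd7, and at 12 weeks the groups are apart for Psmd7, Psme2 and Psme4.

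The 3 activators that can cap the core in place of the regulatory particle gave 4 calls. These were 1 lower at 3 weeks, 1 higher at 6 weeks and 2 higher at 12 weeks. Of all tested genes 6.08% were called lower at 3 weeks, and 8.8% and 11.7% higher at 6 and 12 weeks. With 3 genes, the count does not describe a response of activators as a group. Psme2, the beta subunit of the interferon-responsive activator, rose at 12 weeks. At 3 weeks its level was 9.68, 9.76 and 9.86 in air rats and 9.71, 9.80 and 9.89 in silica rats. At 12 weeks it was 9.46, 9.51 and 9.53 in air rats and 9.63, 9.68 and 9.73 in silica rats. The 3-week ranges nearly coincided, and at 12 weeks every silica rat lay above every air rat while both groups lay below their 3-week medians.

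The change of Psme2 was 0.03 at 3 weeks, 0.04 at 6 weeks and 0.18 at 12 weeks, each ± 0.04 (SE). At 12 weeks this was 1.14-fold (adjusted p = 0.000425), and the call held in 21 of 22 alternatives. The exception was median scaling (0.10, adjusted p = 0.314). The air group itself was 0.26 lower at 12 than at 3 weeks, a difference in which week, age at sampling and a possible array batch cannot be told apart.

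Psme1, the alpha subunit of the same activator, named after its values were seen, was called lower at 3 weeks. Psme2 was not called at that week, and no test compared these genes. At 3 weeks the level of Psme1 was 13.05, 13.11 and 13.14 in air rats and 12.96, 13 and 13.05 in silica rats, so the groups met at 13.05. The change was -0.10 ± 0.03 (SE, adjusted p = 0.0413) at 3 weeks, -0.09 at 6 weeks (adjusted p = 0.0743) and -0.01 at 12 weeks. The 6-week change passed the test with array weights (0.0467), without background correction (0.0489) and with the background from all probes (0.0245). The 3-week call was lost without any one of 8 of the 12 rats, namely air replicates 1, 3, 4 and 5 and silica replicates 1, 3, 4 and 6 (-0.11 to -0.10, adjusted p from 0.0552 to 0.0881), with array weights (0.0558), with only the arrays compared (0.106), and without both arrays that stood apart (0.0585), and under median scaling the change was 0.03 (adjusted p = 0.821).

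Psme4, a large single-chain activator of the nucleus that acts on acetylated histones, was called higher at 6 and 12 weeks and is likewise named after its values were seen. At 6 weeks its level was 9.998, 10.08 and 10.28 in air rats and 10.01, 10.30 and 10.41 in silica rats, with 1 silica rat near the bottom of the air range. At 12 weeks it was 9.89, 10.05 and 10.11 in air rats and 10.14, 10.21 and 10.24 in silica rats, without overlap. The change was 0.09 at 3 weeks (not called), 0.16 at 6 weeks (adjusted p = 0.0418) and 0.17 at 12 weeks (adjusted p = 0.0269), each ± 0.06 (SE). The 6-week call was lost without any one of 9 of the 12 rats, air replicates 2 to 6 and silica replicates 1, 2, 3 and 5 (0.13 to 0.16, adjusted p from 0.0562 to 0.136), with only the arrays compared (0.122) and under median scaling (0.20, adjusted p = 0.203). The 12-week call was lost without air replicate 3 (0.14, 0.0843), air replicate 4 (0.16, 0.0525) or silica replicate 2 (0.16, 0.0559) and under median scaling (0.08, adjusted p = 0.578).

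None of the 4 assembly chaperones passed the test at any week in the model as reported, and at an unadjusted p under 0.05 stood 2 at 3 weeks, 1 at 6 weeks and 0 at 12 weeks. Psmd5, which holds ATPases during base assembly, had the largest statistic. At 3 weeks its level was 7.70, 7.92 and 8.14 in air rats and 8.01, 8.07 and 8.33 in silica rats, with overlap. The change was 0.17 ± 0.07 (SE) at both 3 and 6 weeks (adjusted p = 0.0826 and 0.0769) and 0.02 at 12 weeks, and the 3-week value passed the test without air replicate 4 (0.21, adjusted p = 0.0289). The 6-week value passed it with array weights (0.16, adjusted p = 0.0319) and without both arrays that stood apart (0.17, adjusted p = 0.0348). Psmg2, which starts the alpha ring with Psmg1, had 7.83, 7.97 and 8.01 in air rats at 3 weeks and 7.72, 7.86 and 7.91 in silica rats, with overlap. That change of -0.11 ± 0.05 (SE) did not pass the test (adjusted p = 0.128) except with array weights (-0.14, adjusted p = 0.0399).

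Psmc3ip, the member that is not a subunit, had its largest change at 12 weeks. Air rats had 5.74, 5.84 and 6.01 and silica rats 5.45, 5.75 and 5.79, which overlapped. The change of -0.18 ± 0.07 (SE) did not pass the test (adjusted p = 0.0633), and it did without air replicate 2 (-0.20, 0.0485) or silica replicate 6 (-0.20, 0.0484).

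Core and regulatory particle were set side by side through their mean log2 levels in each rat, as a description without a test. At 3 weeks the core mean was 10.71, 10.75 and 10.80 in air rats and 10.76, 10.81 and 10.85 in silica rats, and 4 of 6 silica rats lay above every air rat. The regulatory mean was 9.79, 9.82 and 9.86 in air rats and 9.78, 9.81 and 9.86 in silica rats, with nearly the same range. The silica effect on the mean was 0.06 for the core and -0.01 for the regulatory particle. Dim probes are part of these means, with 3-week changes of 0.16 for Psma3 in the core and -0.21 for Psmc6 and 0.03 for Psmd8 in the regulatory particle. Psma3 and Psmc6 thus widened the 3-week gap between core and regulatory effect, and Psmd8 narrowed it.

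At 6 weeks the core effect was 0.05 and the regulatory effect -0.01, and at 12 weeks they were 0.01 and -0.02. The difference, core minus regulatory, was 0.07 ± 0.02 (SE over 6 rats a group) at 3 weeks, 0.06 ± 0.02 at 6 weeks and 0.03 ± 0.02 at 12 weeks, or 1.05-fold, 1.04-fold and 1.02-fold. The core minus regulatory value of 3, 5 and 4 of the 6 silica rats lay above that of every air rat at the 3 weeks, and groups overlapped at each. The within-group SD of that value was 0.04, 0.03 and 0.03. Taken as the difference between the median gene changes, the shift was 0.06, 0.05 and 0.02. When the median of the genes' levels in each rat replaced their mean, its sign turned at each week (-0.13, -0.06 and -0.05). Such a median follows the 1 or 2 probes in the middle of the level order rather than the whole list.

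**Figure D3:**
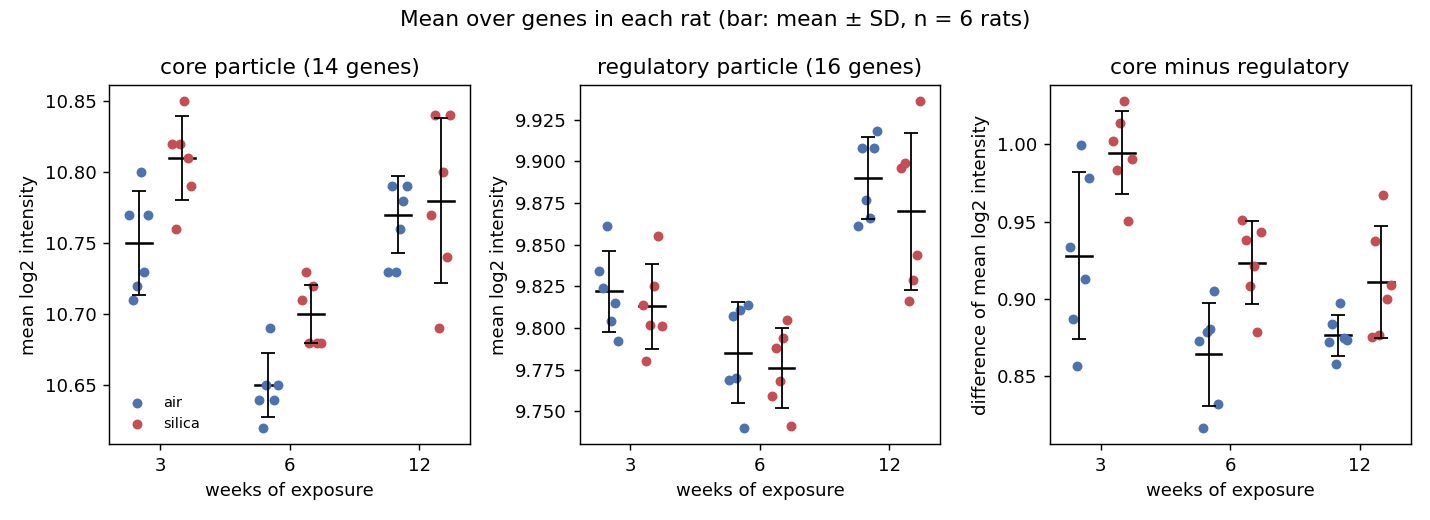
Mean log2 intensity over the 14 core genes, over the 16 regulatory genes, and their difference (vertical axes) in each rat by weeks of exposure (horizontal axis), air in blue and silica in red, with the mean and SD over 6 rats. The difference is higher on average with silica at each week, by 0.07, 0.06 and 0.03, with overlapping rats.

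**Figure D4:**
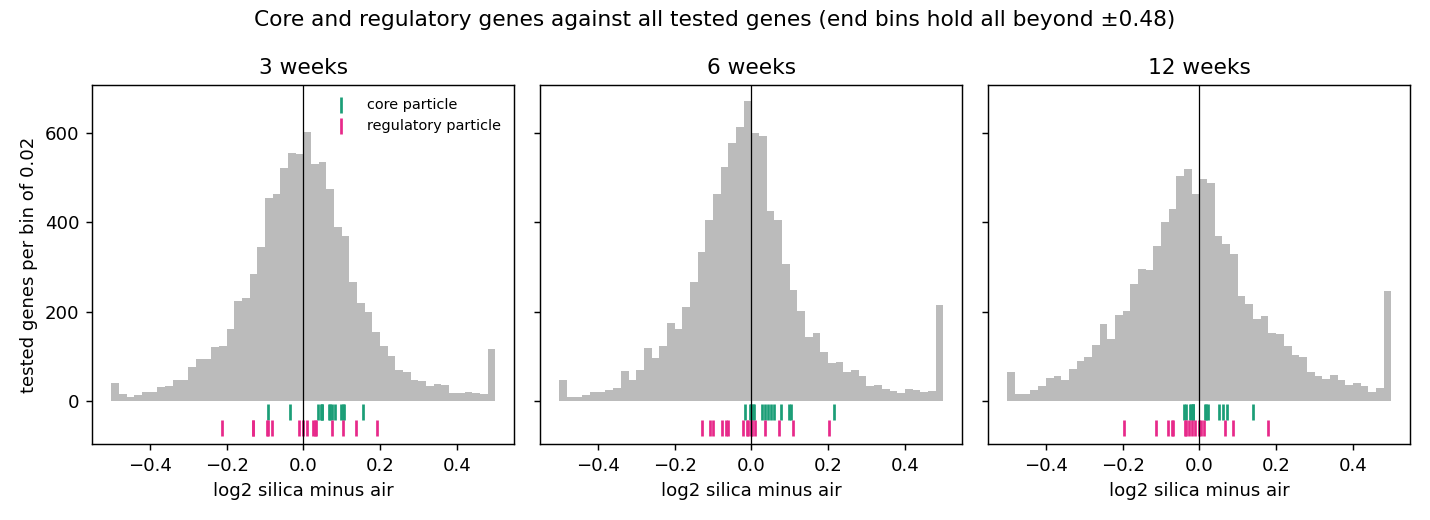
Number of tested genes per bin of log2 change with silica (grey bars, all 9078 tested genes) at 3, 6 and 12 weeks, with the 14 core and 16 regulatory genes as ticks under the bars. Core ticks lie mostly right of 0 at 3 and 6 weeks, 12 and 11 of 14, and all ticks stay within the central body of the distribution.

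The catalytic subunits of the immunoproteasome, left out by the naming rule, showed as little. Psmb8 changed by 0.00, -0.09 and 0.03 at 3, 6 and 12 weeks and Psmb9 by -0.08, 0.08 and 0.10, without a call. Psmb10 rose by 0.13 at 12 weeks (adjusted p = 0.0442), where air rats had 11.11, 11.21 and 11.21 and silica rats 11.19, 11.30 and 11.51. The highest of these was again replicate 3, and the groups overlapped.

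Of other genes of the pathway, 3 of 6 listed subunits and assembly factors without a Psm symbol were tested. Among them Pomp, the chaperone that matures the core and is degraded as its first substrate, rose at 3 weeks (0.16 ± 0.05 SE, adjusted p = 0.0179) and at 12 weeks (0.16 ± 0.05 SE, adjusted p = 0.00979), and was 0.12 at 6 weeks (adjusted p = 0.0591). Of 6 tested deubiquitinases and substrate shuttles, 0 were called at 3 weeks (0 at an unadjusted p under 0.05), 2 rose at 6 weeks and 1 rose at 12 weeks. The shuttle Ubqln1 rose at 6 weeks (0.13, adjusted p = 0.0387) and 12 weeks (0.18, 0.00242), and the shuttle Rad23b at 6 weeks (0.16, 0.00517). Of the 5 tested genes of the p97 complex, which extracts ubiquitin-tagged proteins, 0 were called at any week, and 1, 1 and 0 stood at an unadjusted p under 0.05. The single tested ubiquitin or E1 gene, Uba6, was not called at 3, 6 or 12 weeks and stood at an unadjusted p under 0.05 at 6 weeks.

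In the pathway of the transcription factor that drives proteasome genes, 5 of 7 listed genes were tested. The factor itself, Nfe2l1, and Ddi2 were not among them. Of the tested genes 1 was lower at 3 weeks, 0 were called at 6 weeks (1 at an unadjusted p under 0.05) and 1 was lower at 12 weeks. The 1 lower at 3 weeks was Ngly1, the deglycosylase that processes that factor, at -0.18 ± 0.05 (SE, adjusted p = 0.00727), and the 1 at 12 weeks was Mafk at -0.28. Of 7 tested NRF2 targets, 2 rose and 1 fell at 3 weeks, 1 rose at 6 weeks, and 2 rose and 1 fell at 12 weeks. Hmox1, which degrades haem, rose by 0.49, 0.79 and 0.82. Of 12 tested interferon response genes 1 fell at 3 weeks, 3 fell at 6 weeks and 1 rose at 12 weeks, with median log2 changes of -0.12, -0.24 and 0.11. Of 9 genes of peptide loading for class I antigen presentation, 0 were called at 3 weeks (2 at an unadjusted p under 0.05), 1 fell at 6 weeks, and 1 rose and 1 fell at 12 weeks.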

How the data were processed

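Mean bead intensity and a detection p-value per probe and array were taken from the deposited non-normalised table, per the file headers. The authors' second deposited table, of processed log2 values, served as an alternative. Tools named in the submitters' processing notes are BeadStudio, limma and lumi, and their settings are not given in the sources used here. Members were picked by the symbol of the platform annotation. For all genes that symbol was replaced by the current RefSeq symbol where the Entrez number or transcript accession matched, which changed the symbol of 0 members. Intensities were corrected by the normexp method of limma 3.58.1 (R 4.3.3), with the background inferred from the detection p-values of the 21204 probes on a grid of 825 negative controls, an offset of 16, quantile normalisation and log2. Probes detected at p under 0.05 on at least 6 arrays were kept, 1 per gene by highest mean, which left 9078 genes. All 36 arrays entered 1 limma model with 6 group means (30 residual degrees of freedom) and two-sided moderated tests, and p-values were adjusted by Benjamini-Hochberg over all 9078 genes and called under 0.05. Changes are silica minus air on the log2 scale, where levels of different probes cannot be compared, and the SE of the core minus regulatory difference came from the SD over rats. The number of arrays limits the precision.

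Each rat carries its own number in the labels, so replicates are separate animals. Rules asked for per-rat values of the member with the largest test statistic in each role and of members called at all weeks or in opposite directions, and for ranges and counts of the others. The members, gene lists and alternatives were chosen with earlier results of these data known. The code was tested on simulated data. Symbols could not separate members from near-identical copies, and 16 members have an annotated pseudogene or copy, so their probes may read both. Promoters were searched with Python and figures drawn with matplotlib.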

Additional observations from a re-analysis of the deposited data

Results flagged for a closer look

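Among 90 sets of 6 rats, made of 12 named members, the core mean, the regulatory mean and their difference, 10 held a rat whose gap to its nearest neighbour was a large part of the range of its group. Chance flags about 1 in 20 such groups. The low values on the log2 scale were 12.05 for Psmb2 in air replicate 3 at 12 weeks, 12.30 for Psmc1 in silica replicate 2 at 6 weeks, 10.44 for Psmd7 in silica replicate 1 at 6 weeks and 9.76 for Psme4 in air replicate 1 at 3 weeks. The high values for activators and regulatory genes were 13.17 for Psme1 in air replicate 2 and 10.60 for Psmd7 in air replicate 2, both at 12 weeks. Psmb6 stood at 11.14 in silica replicate 3 at 12 weeks. Psmc3ip stood at 5.68 in silica replicate 1 and Psmd5 at 8.33 in silica replicate 4, both at 3 weeks. The core mean was 10.69 in air replicate 4 at 6 weeks. Some of these silica rats belong to called changes, those of Psmc1 and Psmd7 at 6 weeks and Psmb6 at 12 weeks. Each of those calls was lost without the flagged silica rat, and also without other rats not flagged for that gene.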

How the results depend on the processing

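The counts of called members were small and moved with the processing. Leaving out 1 rat gave 0 to 3 higher and 0 to 1 lower members at 3 weeks, 1 to 3 and 1 to 2 at 6 weeks, and 2 to 4 and 1 to 2 at 12 weeks. Under median scaling 0 were lower at 3 weeks, 0 higher and 0 lower at 6 weeks, and 0 higher at 12 weeks. With only the arrays compared, which leaves fewer samples to estimate the spread, 0 were higher and 0 lower at 3 weeks, 1 and 0 at 6 weeks, and 2 higher at 12 weeks. Array weights gave 5 higher at 6 weeks. Without both arrays that stood apart, an alternative chosen after seeing the data, 0 were lower at 3 weeks and 4 higher at 6 weeks. The cause of these shifts was not tested. No difference between lengths of exposure was called for any member in the 34 alternatives run for each.

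The labels number the replicates in every group. Of 18 same-numbered pairs of rats, 7 had deviations from their group means correlated above 0.1. For 6 of the 18 air rats, the silica rat of that week with the highest correlation bore the same number. The 18 correlations ran from -0.27 to 0.44, with a median of -6e-04. The limit of 0.1 had no reference to be judged against, so this check neither showed nor excluded a pairing by number. With a replicate block 2 members were lower at 12 weeks in place of 1, Psmc3ip being added (-0.18, adjusted p = 0.0352), and the other counts were equal to those without it.

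The core minus regulatory difference kept its sign in 20 of 21 alternatives at each week and was reversed (-0.13, -0.0611 and -0.0549) with the median of the genes' levels in each rat. The 3-week change of Psme1 was reversed under median scaling (0.0295). Dim probes limit Psma3, Psmc6 and Psmd8, which lie close to background.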
